A study of Mus musculus with 24 samples.

Results

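The ascending aorta of mouse embryos that had lost Prdm6 in the neural crest lineage was compared with that of control embryos, by RNA-Seq of 5 Prdm6-deficient and 6 control vessels. These 11 libraries were chosen by their tissue and genotype labels from the 23 libraries analysed, and the other 12 came from the ductus arteriosus (DA), the fetal vessel that joins the pulmonary artery to the aorta. All embryos were collected at E18.5, shortly before birth, on a C57BL/6 background, and each aorta library was made from the microdissected vessel of 1 embryo. The Prdm6-deficient embryos were Wnt1Cre;PRDM6f/f, so both floxed alleles could be deleted where Cre, driven in the neural crest by the Wnt1-Cre2 transgene, had been active. Of the 6 controls, 5 were PRDM6wt/f without Cre (1 floxed allele, not deleted), and control replicate 3 was Wnt1Cre;PRDM6wt/wt, with Cre and no floxed allele. Every deficient embryo therefore carried Cre and 1 control did. For no gene can the effect of the transgene and that of Prdm6 loss be told apart in the deficient embryos. The DA groups enter only where the vessels are compared and held 5 deficient libraries, 2 of them pooled from 2 embryos each, and 7 controls (5 PRDM6wt/f, 1 Wnt1Cre;PRDM6wt/wt and 1 PRDM6wt/wt). Cells of the vessel that do not descend from the neural crest kept their Prdm6 alleles.

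Prdm6 is a PR/SET-domain protein of the nucleus that is most abundant in smooth muscle cells (SMCs) and acts on transcription through partner proteins and chromatin. The SMCs of the ascending aorta come from the neural crest and from the second heart field, and the vessel wall also holds endothelium, adventitial fibroblasts, nerves, macrophages and blood. Fetal aortic SMCs both contract and lay down the elastic fibres and collagens of the wall. Matrix, guidance and growth factor genes are therefore part of their normal program beside the contractile genes that SRF and its cofactors drive. The question for this vessel was which genes depended on neural crest Prdm6, and whether they were those that depended on it in the DA.

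Genes of the matrix, of Wnt, BMP and guidance signals and of receptors and channels changed in the Prdm6-deficient aorta. The test was passed by 10.7% of 28 contractile genes (25 did not pass) and by 6.98 to 21.7% of the genes in each list of those classes. Of 16463 genes tested, 404 were called (adjusted p below 0.01 in the edgeR quasi-likelihood test, with a log2 difference of over 0.5 up or down), which is 2.45% of the genes. Higher in the Prdm6-deficient aorta were 268 genes (1.63%) and lower were 136 (0.826%). Over 2-fold changes were seen for 138 of the higher and 67 of the lower genes. In 386 of the 404 the 5 deficient and 6 control values did not overlap, against 6.95% of all genes with groups that did not overlap. Rergl, Ccdc3, Thbs4 and Col8a1 were among the largest increases and 4833415N18Rik, Clca3a2 and Gria1 among the largest decreases, while Ephx2 and Higd1a had the smallest p-values. The median log2 fold change over all genes was -0.000998.

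**Figure D1:**
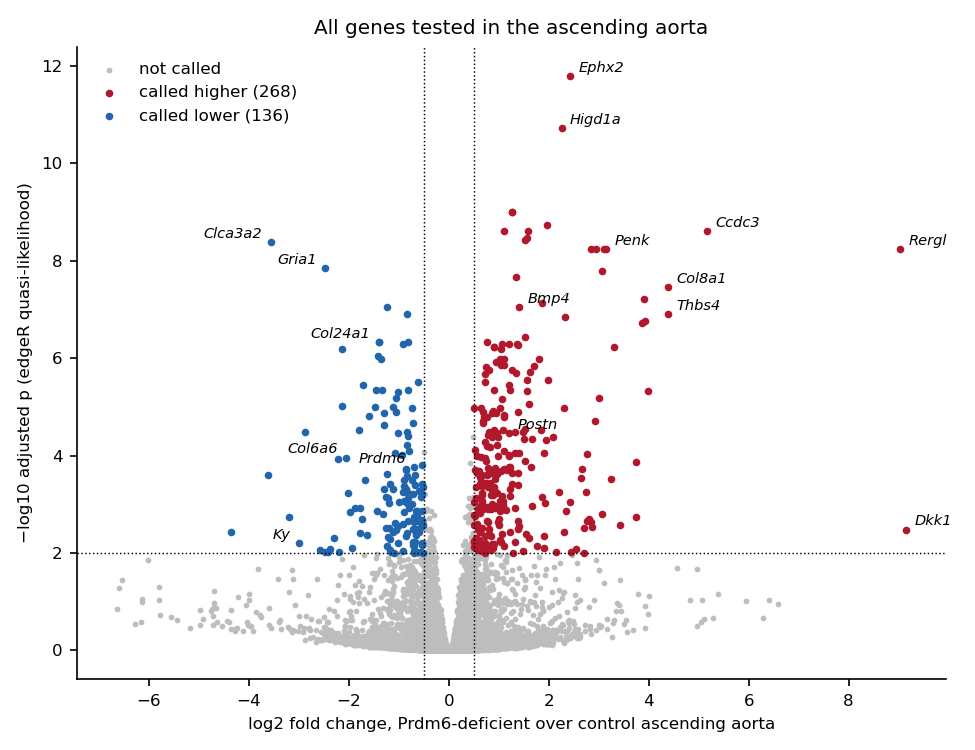
Log2 fold change of each of the 16463 genes in the ascending aorta (Prdm6-deficient over control, x axis) against the −log10 of its adjusted p (y axis). Red points are the 268 genes called higher, blue points the 136 called lower and grey points the genes not called, with dotted lines at the thresholds. Ephx2 and Higd1a have the smallest p-values, and the fitted values of Rergl and Dkk1, at 0 or 1 count in the controls, lie farthest to the right and depend on the prior count.

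The variance estimate was shared by all 4 groups, and the DA libraries were the more variable. With the 11 aorta libraries alone in the fit, 702 of 15195 genes (4.62%) were called (409 higher or 2.69%, 293 lower or 1.93%), and 396 of the 404 were among them. Values below are from the fit of all groups, and a bare number in parentheses after a gene is its log2 fold change, Prdm6-deficient over control aorta. Counts of calls in a gene list are to be read against the 2.45% called over all genes (1.63% higher and 0.826% lower). Counts at an unadjusted p under 0.05 are to be read against 2304 of all 16463 genes at that level, in either direction. A call is named borderline where leaving out any 1 aorta library lost it, which held for 44 of the 156 called genes named here. The embryo numbers in the sample descriptions fell into 2 ranges, here called animal series, a split that no label names. The first held 2 deficient and 1 control aorta and the second 3 and 5. In the second alone 460 genes were called, 315 of them among the 404. Calls not named borderline that were lost there were those of Ckb, Kcnj15, Nog, Skil, Slit3 and Sox9. In limma-voom the calls of 4833415N18Rik, Cck, Foxf1, Kcnk1, Ptger3 and Sox9 were lost likewise.

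The 11 libraries held 18980857 to 22610547 estimated counts, so that 3 counts corresponded to 0.133 to 0.158 CPM (the usual scaling of counts to library size, used for all levels here). On the first principal component, which took 24.1% of the variance, the deficient libraries lay between 14.9 and 32.0 and the controls between -23.7 and -12.3. SMC markers marked every library as smooth muscle tissue, with Myh11 at 433 to 588 CPM in the deficient and 325 to 773 (median 504) CPM in the control vessels. Control replicate 4 stood apart in genes that are high in the DA. It had 9.98 CPM of Tfap2b, 55.9 CPM of Ptger4 and 18.3 CPM of Foxf1, the highest of the 6 controls for each, and these genes averaged 35.9, 195 and 76.3 CPM in the control DA. Without this library 367 genes were called with all groups in the fit, and 661 with the aorta alone (where it was added as a setting after the data were seen). Y-linked transcripts exceeded Xist in 1 of 5 deficient and 3 of 6 control libraries, and 361 genes were called with Y-linked expression as a covariate, a setting added likewise.

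Prdm6 itself, at chr18:53463583-53575907 on the plus strand of mm10, fell in the Prdm6-deficient aorta but was not lost. Its level was 69.6, 70.0, 68.5, 81.2 and 61.9 CPM in the deficient vessels and ranged from 95.6 to 136 (median 108) CPM in the controls. The groups did not overlap, and the log2 fold change was -0.69 (SE 0.11, adjusted p = 1.70e-04 in edgeR). Counts were summed over the whole gene, so reads from exons outside the deleted part and from cells without Cre were included. Prdm6 was the only one of the 11 tested PR-domain family genes that was called. In the DA its log2 fold change was -0.57 (adjusted p = 5.53e-04).

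Some of the called genes lay close to Prdm6. Within 10 Mb on either side, 6 of 92 tested genes (6.52%) were called, against 14 of 444 (3.15%) on chromosome 18 and 2.45% overall. Besides Prdm6 these were Zfp608, a zinc finger gene 1.42 Mb away (1.34), Fbn2, which encodes the microfibril protein fibrillin-2, 4.55 Mb away (1.52), Piezo2, a mechanically gated cation channel, 9.55 Mb away (2.84), the chloride cotransporter gene Slc12a2, 4.42 Mb away (-0.84), and the fatty acid transport gene Slc27a6, 5.09 Mb away (-1.77, borderline). The chromosome segment around the floxed allele was homozygous in the deficient embryos, heterozygous in the PRDM6wt/f controls and absent from the Wnt1Cre;PRDM6wt/wt control. Neither the labels nor the paper state whether its sequence differs from C57BL/6, and its part in these changes was not tested.

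The largest increases included genes that were nearly silent in the control aorta. Rergl, a gene for a RERG-type small GTPase that lies at chr6:139492973-139501976 on the minus strand, had 8.64, 7.05, 8.04, 5.26 and 8.98 CPM in the deficient vessels, while 5 controls had no count and the other had 1 count. Against a floor of 3 counts per library this was at least 51.5-fold higher. Ccdc3, a secreted coiled-coil protein gene at chr2:5137776-5230878 on the plus strand, had 109.6, 122, 104, 95.8 and 94.6 CPM in the deficient and 0.616 to 6.29 (median 1.94) CPM in the control vessels, a 36.0-fold difference (log2 5.17, SE 0.41, adjusted p = 2.50e-09). Both genes separated the groups completely. Other leading increases were Thbs4 (4.39) and Col8a1 (4.38), matrix genes described below, Chrna2 (3.99), a nicotinic acetylcholine receptor subunit, Tox (3.93), an HMG-box regulator, Barx1 (3.43, borderline), a homeobox gene, Angpt1 (3.86), the activating ligand of the endothelial receptor Tie2, Clstn2 (3.75), a calsyntenin of synaptic membranes, Mme (3.30), the peptidase neprilysin, and Ak5 (3.24), an adenylate kinase.

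**Figure D2:**
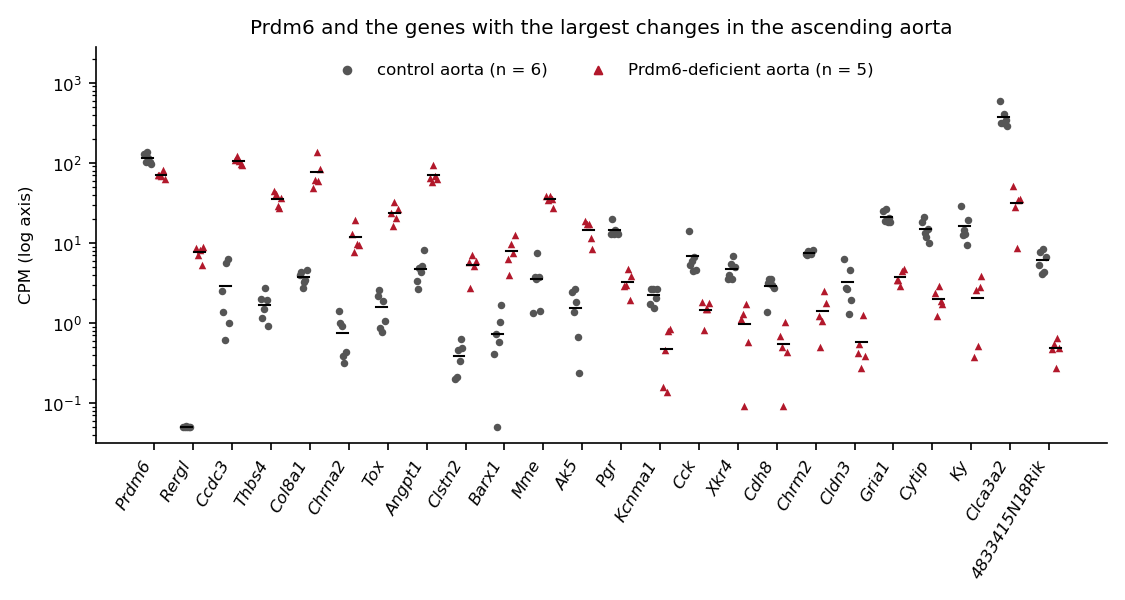
Levels in CPM on a log axis for Prdm6 and for 11 leading increases and the 12 largest decreases in the ascending aorta, with 1 point per library (grey circles, 6 controls; red triangles, 5 Prdm6-deficient) and a bar at each mean. Values below 0.05 CPM are drawn at 0.05, where the Rergl controls sit.

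Among the decreases, the chloride channel accessory gene Clca3a2, at chr3:144796559-144819494 on the minus strand, had the smallest p-value. It had 51.8, 27.9, 8.64, 34.8 and 35.8 CPM in the deficient and 290.5 to 584 (median 329) CPM in the control vessels, and its log2 fold change was -3.57 (SE 0.29, adjusted p = 4.14e-09). Its paralog Clca3a1, which may share reads with it, fell as well (-2.14). Gria1, an AMPA-type glutamate receptor subunit at chr11:57011387-57330244 on the plus strand, had 3.44, 3.48, 2.91, 4.47 and 4.68 CPM against 18.2 to 26.8 (median 19.6) CPM in the controls (log2 -2.48, adjusted p = 1.44e-08). For Clca3a2 and Gria1 the highest deficient value lay well below the lowest control value. The other decreases of this group were 4833415N18Rik, a lincRNA (-3.62), Ky, a muscle peptidase gene (-3.01, borderline), Cytip, a cytohesin-interacting protein (-2.88), Cldn3, a tight junction protein (-2.47, borderline), Chrm2, the M2 muscarinic receptor (-2.41, borderline), Cdh8, a classical cadherin (-2.38, borderline), Xkr4, an XK-family membrane protein (-2.29, borderline), Cck, the peptide hormone cholecystokinin (-2.21), Kcnma1, the pore of the BK potassium channel (-2.20, borderline), and Pgr, the progesterone receptor (-2.14).

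The promoter windows of 3 leading genes, Ccdc3 and Rergl among the increases and Pgr among the decreases, are shown, since Prdm6 is a nuclear protein that acts on transcription. They run from 250 bases before to 50 bases after the start in RefSeq (build GRCm38.p6, the same coordinates as mm10), 5′ to 3′ on the gene's strand, and belong to the leading genes with the smallest p-values among those whose RefSeq start lay within 100 bases of the GENCODE start. Capitals mark matches, on either strand, to a CArG box (the SRF motif), an AP-1 motif (TGANTCA), a TEAD motif (GGAATG) or an RBPJ motif (TGGGAA).
Ccdc3 (chr2:5137526-5137825, plus strand): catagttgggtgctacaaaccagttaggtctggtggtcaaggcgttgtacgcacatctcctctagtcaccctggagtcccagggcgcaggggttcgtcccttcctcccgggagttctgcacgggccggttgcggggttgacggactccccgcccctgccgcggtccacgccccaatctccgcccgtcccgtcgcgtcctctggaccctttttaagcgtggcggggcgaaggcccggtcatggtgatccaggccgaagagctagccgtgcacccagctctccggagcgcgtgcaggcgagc
Rergl (chr6:139501860-139502159, minus strand): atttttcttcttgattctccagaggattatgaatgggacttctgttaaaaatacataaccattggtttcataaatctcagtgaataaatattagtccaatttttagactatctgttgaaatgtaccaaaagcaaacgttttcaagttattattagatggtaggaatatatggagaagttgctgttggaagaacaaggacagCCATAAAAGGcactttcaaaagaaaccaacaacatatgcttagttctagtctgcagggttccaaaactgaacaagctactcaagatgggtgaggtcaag
Pgr (chr9:8899583-8899882, plus strand): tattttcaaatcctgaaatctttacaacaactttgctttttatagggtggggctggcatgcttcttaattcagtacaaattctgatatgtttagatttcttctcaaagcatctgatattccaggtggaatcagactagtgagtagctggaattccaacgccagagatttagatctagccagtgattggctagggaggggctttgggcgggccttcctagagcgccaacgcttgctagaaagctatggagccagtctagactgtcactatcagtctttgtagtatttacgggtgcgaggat
The Rergl window held 1 CArG box, and the windows of Ccdc3 and Pgr held none of the motifs. Of the 16463 tested genes, 11621 could be matched to a window, 191 of them called higher and 100 called lower. A CArG box was found in 1.36% of all windows, in 5 of the 191 higher (2.62%) and in 2 of the 100 lower genes. The TEAD motif was found in 12.2% of all windows, 18.3% of the higher and 14% of the lower ones. Shares for AP-1 were 4.74%, 5.76% and 6%, and shares for RBPJ were 23%, 21.5% and 21%. A match describes letters in the window and not a bound site.

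By p-value alone, metabolic and receptor genes led the list, and these were singled out after their values were seen. Ephx2, the soluble epoxide hydrolase that breaks down vasoactive epoxides of arachidonic acid, had 311, 275, 349, 255 and 301 CPM in the deficient and 41.9 to 66.3 (median 55.6) CPM in the control vessels (log2 2.43, SE 0.13, adjusted p = 1.59e-12). Higd1a, a mitochondrial protein induced by hypoxia, had 228, 288, 294, 222 and 250.5 CPM against 45.1 to 65.4 (median 54.1) CPM (log2 2.26, adjusted p = 1.86e-11). In both genes every deficient value lay far above the highest control value. The glycogen primer gene Gyg (1.97), the CXCL12-binding receptor gene Ackr3 (1.27) with Cxcl12 itself (0.73), thrombomodulin (Thbd, 1.56) and Tmem176b (1.27) rose too. Penk, which encodes the enkephalin precursor, rose from 37.2 ± 5.50 to 328 ± 63.8 CPM (mean ± SD, n = 6 and 5). The thyroid hormone receptor gene Thrb (3.06) and the pentraxin gene Ptx3 (2.94), a secreted pattern recognition protein, increased by similar log2 steps. Among abundant genes, the intermediate filament gene Vim fell from 4234 ± 586 to 2417 ± 214 CPM (log2 -0.81), the selenium transport gene Selenop from 586 ± 53.2 to 214 ± 17.5 CPM (-1.45), and the mucin-type glycosyltransferase gene Galnt16 from 257 ± 21.6 to 96.9 ± 26.2 CPM (-1.41).

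Most contractile genes of SMCs did not pass the test. Of 28 tested genes of the contractile apparatus, 1 was called higher and 2 lower (10.7%, against 2.45% of all genes), 4 were higher and 5 lower at an unadjusted p under 0.05, the median log2 fold change was -0.03, and the summed level was 22950, 23760, 22130, 20960 and 23840 CPM in the deficient libraries and 19580 to 25920 CPM in the controls, which overlapped. Acta2, smooth muscle actin, had 4210, 4474, 4196, 3949 and 4506 CPM against 3634 to 5735 (median 4614) CPM, and its log2 fold change of -0.12 (SE 0.12, adjusted p = 0.8) was within the spread. Tagln (0.10, SE 0.11), Cnn1 (-0.32, SE 0.13), Actg2 (-0.09, SE 0.19) and smooth muscle myosin heavy chain, Myh11 (-0.04, SE 0.20), did not pass either. The 3 called genes were Mylk, the myosin light chain kinase, which rose (0.65, borderline), Itga8, the integrin α8 chain of differentiated SMCs (-1.11), and Synpo2, an actin-bundling Z-disc protein (-0.85), both of which fell. With the aorta alone in the fit Des was called lower as well.

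Itga8 had 443, 305, 231, 367 and 422 CPM in the deficient and 608 to 923 (median 775) CPM in the control vessels (adjusted p = 9.96e-06 in edgeR), and the groups did not overlap. None of the 14 tested genes for SRF and its cofactors was called in edgeR, DESeq2 or limma-voom, and 0 had an unadjusted p under 0.05 in edgeR. Srf was at 70.9, 75.4, 46.5, 71.0 and 70.6 CPM against 58.0 to 82.3 (median 68.7) CPM (log2 -0.04), and replicate 3 was the lowest of the deficient vessels. Myocd, the cardiac and smooth muscle coactivator of SRF, had a log2 fold change of -0.24 (SE 0.18).

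In the DA the same 28 contractile genes gave 1 call upward and 17 downward (5.43% of all genes were called in the DA), and their median change was -0.61 on the log2 scale. The test of the difference between the vessels was passed by 15 of the 28 genes (2.58% of all genes passed it). Myh11 differed by 1.85 on the log2 scale (aorta effect minus DA effect, SE 0.28, adjusted p = 7.81e-05), Actg2 by 2.30, Cnn1 by 1.33 and Tagln by 0.76. Mylk moved in opposite directions, with log2 fold changes of 0.65 in the aorta and -0.99 in the DA, and the difference of 1.64 had an adjusted p of 1.68e-05. Myh11 averaged 2005 CPM in the control DA and 536 CPM in the control aorta, and 538 CPM in the deficient DA.

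Matrix genes changed in both directions. Collagen genes gave 4 increases and 5 decreases of 42 tested (21.4%, against 2.45% of all genes), with a median of 0.05. Col8a1, a short-chain collagen at chr16:57624258-57754737 on the minus strand, had 48.8, 60.8, 136, 58.5 and 82.6 CPM in the deficient and 2.72 to 4.55 (median 3.70) CPM in the control vessels, a 20.8-fold increase (log2 4.38, SE 0.41, adjusted p = 3.42e-08). The fibril-associated collagen gene Col12a1 had 309.7, 339, 309.6, 296 and 323 CPM against 94.6 to 119 (median 106) CPM (log2 1.58, adjusted p = 2.50e-09). Both groups were tight for Col12a1, whereas replicate 3 had the highest Col8a1 value of the deficient vessels. The fibrillar Col11a1 (2.09) and the transmembrane Col23a1 (0.96) were the other increases.

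The falling collagens were those of beaded filaments and some fibril components. Col6a6 had 36.9, 29.4, 18.9, 41.9 and 26.1 CPM in the deficient and 97.6 to 161 (median 120.2) CPM in the control vessels (log2 -2.05, adjusted p = 1.10e-04). Of the other collagen VI chains, Col6a1 fell by 0.68 and Col6a2 by 0.55 on the log2 scale (Col6a2 borderline). Col6a1 lay at 352 to 508 CPM in the deficient vessels and at 634 to 713 (median 677) CPM in the controls. Col24a1 had 69.5, 52.3, 31.5, 55.5 and 43.7 CPM against 107 to 146 (median 140) CPM (log2 -1.41). Col14a1, a fibril-associated collagen, had 239, 168, 152, 208 and 166 CPM against 388 to 518 (median 471) CPM (log2 -1.31, adjusted p = 1.36e-05). None of these 5 genes overlapped between the groups.

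**Figure D3:**
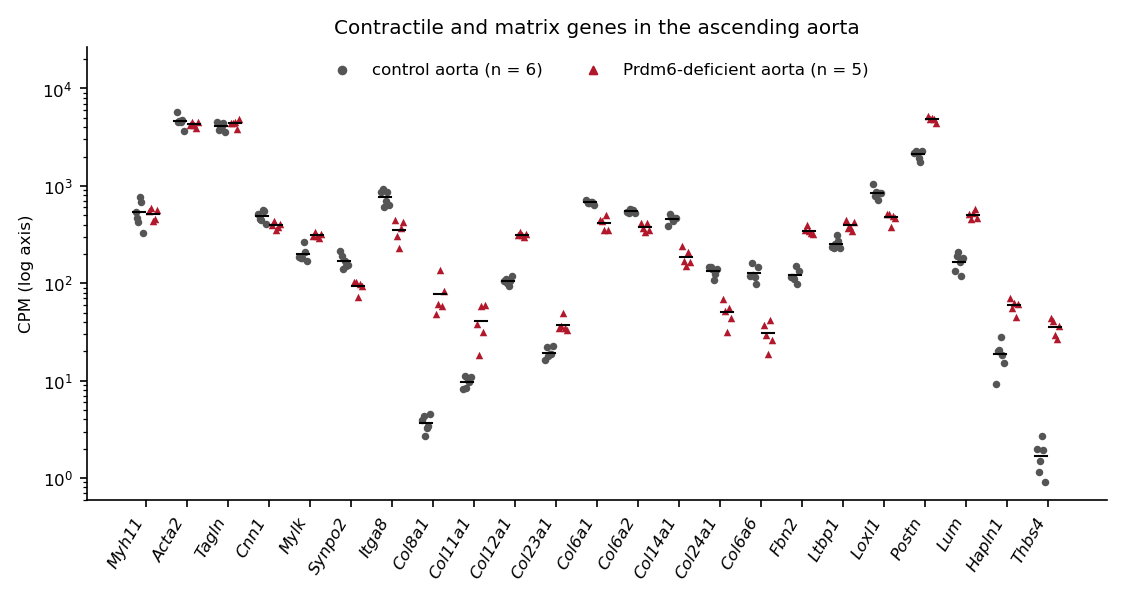
Levels in CPM on a log axis for SMC contractile genes (Myh11 to Itga8) and matrix genes (Col8a1 to Thbs4) in the ascending aorta, with 1 point per library (grey circles, 6 controls; red triangles, 5 Prdm6-deficient) and a bar at each mean. Myh11, Acta2, Tagln and Cnn1 overlap between the groups, whereas the collagen genes and Fbn2, Postn and Lum do not.

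Of 24 elastic fibre genes, 2 rose and 1 fell (12.5%, against 2.45% of all genes). Fbn2 had 349.9, 393, 345, 327 and 319 CPM in the deficient and 99.2 to 150.1 (median 115) CPM in the control vessels (log2 1.52, SE 0.12, adjusted p = 3.84e-09), and it lies within the 10 Mb around Prdm6. Loxl1, a lysyl oxidase that crosslinks elastin, had 519, 508, 382, 488 and 470.5 CPM against 719 to 1035 (median 838) CPM (log2 -0.84, adjusted p = 1.24e-07). These opposite changes were both free of overlap. Ltbp1, which holds latent TGF-β in the matrix, rose as well (0.62, borderline). Fbln1 had a log2 fold change of -0.71 (adjusted p = 0.105) and was not called, whereas with the aorta alone its adjusted p was 0.00207 and it was called lower. The summed level of the 24 genes was 86740, 72990, 64930, 72870 and 82200 CPM in the deficient libraries and 83200 to 102300 CPM in the controls.

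Proteoglycan and matrix glycoprotein genes gave 5 increases and no decrease among 52 tested (9.62%, against 2.45% of all genes), and 47 did not pass (median 0.08). Thbs4, thrombospondin-4, had 44.5, 41.3, 29.2, 26.9 and 36.0 CPM in the deficient and 0.911 to 2.70 (median 1.71) CPM in the control vessels (log2 4.39, adjusted p = 1.24e-07). Postn, the matricellular protein periostin, went from 2101 ± 207 to 4865 ± 264 CPM (mean ± SD; log2 1.21) and the small leucine-rich proteoglycan gene Lum from 166 ± 34.6 to 506 ± 47.8 CPM (1.61). Hapln1, which links hyaluronan to versican (1.66), and Sdc3, a syndecan (0.65), were the other 2. Of 35 proteases and inhibitors, the versican-cleaving Adamts5 (0.86), Adamts6 (0.85, borderline) and the membrane-anchored inhibitor Reck (0.61) rose and Mmp23 fell (-0.53, borderline). Of 31 integrin and adhesion genes, the collagen-binding Itga11 had 26.6, 23.6, 21.1, 26.1 and 19.4 CPM against 3.33 to 6.62 (median 4.37) CPM (log2 2.33, adjusted p = 1.42e-07), and besides Itga8 the genes Itga9 (-0.70, borderline) and Itgb3 (-0.64) fell.

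Secreted Wnt modulators and receptors gave 9 increases and 1 decrease of 46 tested (21.7%, against 2.45% of all genes), with a median of 0.17. Rspo3, an R-spondin that amplifies Wnt signals, had 71.5, 70.4, 98.0, 58.9 and 84.0 CPM in the deficient and 4.85 to 13.8 (median 8.51) CPM in the control vessels (log2 3.11, SE 0.26, adjusted p = 5.70e-09). The related Rspo2 had 6.36, 10.6, 11.2, 9.07 and 9.51 CPM against 0.757 to 2.83 (median 1.55) CPM (log2 2.54, borderline). The Wnt antagonist gene Dkk1 had 1.11, 0.321, 8.40, 2.37 and 5.85 CPM in the deficient vessels and no count in any control, at least 24.5-fold higher against a floor of 3 counts per library (borderline). Activators and inhibitors of the pathway rose side by side: Dkk2 (0.62, borderline) and the secreted Frzb (1.20) are inhibitors, while Fzd8 (0.91), Lrp5 (0.51, borderline), Ror1 (0.77) and Ror2 (0.68, borderline) encode receptors. The R-spondin receptor gene Lgr6 fell (-0.85).

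TGF-β and BMP genes gave 7 increases and 2 decreases of 51 tested (17.65%, against 2.45% of all genes), with a median of 0.11. The ligand gene Bmp4 had 272, 264, 297, 238 and 303 CPM in the deficient and 86.2 to 130.3 (median 97.3) CPM in the control vessels (log2 1.41, SE 0.14, adjusted p = 8.83e-08). Its secreted antagonist Nog had 3.76, 3.02, 6.28, 4.98 and 4.83 CPM against 0.240 to 1.30 (median 0.933) CPM (log2 2.42, adjusted p = 8.80e-04). The ligands Gdf10 (1.53), Inhba (0.96) and Gdf6 (1.10, borderline), the endothelial coreceptor gene Eng (0.68) and the SMAD corepressor gene Skil (0.66) also rose. The decreases were Inhbb, an activin subunit (-1.11, borderline), and Bambi, a decoy receptor (-0.66, borderline). In the DA the same list gave 1 increase and 8 decreases, and 10 of its genes passed the test of the difference.

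Guidance genes gave 7 increases and 3 decreases of 68 tested (14.7%, against 2.45% of all genes), with a median of 0.25. Slit2, a secreted repellent, had 61.9, 57.5, 79.2, 63.5 and 71.3 CPM in the deficient and 16.6 to 26.6 (median 22.7) CPM in the control vessels (log2 1.57, adjusted p = 2.76e-06), while its paralog Slit3 fell by 0.60 on the log2 scale. Unc5b, a netrin receptor, had 234, 217, 228, 279.8 and 214 CPM against 95.0 to 126 (median 107) CPM (log2 1.09, SE 0.09, adjusted p = 2.50e-09). The netrin genes Ntn3 (1.497) and Ntn4 (1.40), the netrin and repulsive guidance receptor gene Neo1 (0.90), the semaphorin receptor gene Plxna2 (0.87) and the ephrin receptor gene Epha3 (0.89, borderline) rose with them. Epha1 (-1.18, borderline) and the semaphorin gene Sema5a (-0.91) fell.

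Among 44 growth factor and receptor genes 3 rose and 1 fell (9.09%, against 2.45% of all genes). Vegfd, a ligand of endothelial VEGF receptors, had 33.2, 31.4, 38.8, 30.7 and 30.6 CPM in the deficient and 4.75 to 13.5 (median 9.24) CPM in the control vessels (log2 1.86, adjusted p = 7.35e-08). Igfbp3, an IGF-binding protein (1.08), and Fgfr3 (0.69, borderline) rose, and Kitl, the ligand of the KIT receptor, fell (-0.53, borderline). Of 20 Notch pathway genes 1 was called, the endothelial receptor gene Notch4 (0.63, borderline), against 6 higher and 1 lower in the DA. Jag1 (0.15, SE 0.12) and Notch3 (0.17, SE 0.13) were not called in the aorta, and their effects differed from those in the DA by -0.78 and -0.82 on the log2 scale. None of the 17 retinoic acid pathway genes was called with all groups in edgeR, DESeq2 or limma-voom, and Aldh1a2, a retinaldehyde dehydrogenase gene, was called lower with the aorta alone in edgeR. At an unadjusted p under 0.05 there were 3 higher and 2 lower genes.

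Transcription factors of the neural crest and the outflow tract included several increases. Of 23 neural crest factors, 4 rose and 1 fell, and the median log2 fold change of the list was 0.97, with 11 genes higher and 2 lower at an unadjusted p under 0.05. Barx1 had 6.25, 3.94, 9.79, 7.54 and 12.6 CPM in the deficient and 0 to 1.68 (median 0.653) CPM in the control vessels, and the homeobox gene Dlx1 had 15.4, 7.56, 27.3, 13.4 and 12.2 CPM against 0.911 to 4.01 (median 1.87) CPM (log2 2.87, borderline). Ets1, which also acts in endothelium, had 110.5, 106, 157, 114 and 134 CPM against 40.9 to 57.7 (median 53.3) CPM (log2 1.27, SE 0.15, adjusted p = 1.77e-06). The nuclear receptor gene Nr2f2 rose (0.51, borderline) and Sox9, a regulator of cartilage and crest, fell (-1.78). The Sox9 call was lost in limma-voom and in the second animal series alone, among other settings. The groups did not overlap for Barx1, Dlx1, Ets1 and Sox9 and overlapped for Nr2f2.

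Of 39 outflow tract factors, 5 rose and 2 fell (17.95%, against 2.45% of all genes). Tbx2, a T-box repressor, had 67.3, 63.2, 76.3, 58.2 and 53.0 CPM in the deficient and 14.1 to 22.6 (median 16.9) CPM in the control vessels (log2 1.85, adjusted p = 3.05e-05). Twist1, a mesenchymal helix-loop-helix factor, had 81.4, 77.8, 76.9, 87.3 and 79.3 CPM against 29.8 to 46.5 (median 36.2) CPM (log2 1.11, SE 0.13, adjusted p = 1.37e-06). Foxc1 (0.55, borderline) and Foxp2 (0.65, borderline) rose as well. Osr1, a zinc finger gene of embryonic mesoderm, had 100, 88.3, 69.1, 75.4 and 80.6 CPM against 152 to 257 (median 194) CPM (log2 -1.23, adjusted p = 8.83e-08). Foxf1 had 0.477, 0.458, 0.369, 2.14 and 0.195 CPM against 1.08 to 18.3 (median 5.24) CPM, so its groups overlapped. Its log2 fold change was -3.19, and its call was kept without control replicate 4, the highest value, with all groups in the fit. The call was lost without that library when the aorta alone was fitted, and in limma-voom. Of 16 Hox genes tested, Hoxa3 rose (0.67), as did Hoxd3 when the aorta alone was fitted, and Hoxb5 was not called (-0.39). Tfap2b (-1.39, SE 0.79) and Hand2 (0.41, SE 0.26) were not called either.

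Receptors and signalling proteins that set vascular tone were called in both directions. Of 77 vasoactive receptors and mediators, 7 rose and 2 fell (11.7%, against 2.45% of all genes), with a median of 0.16. The prostaglandin E2 receptor genes Ptger1 (1.92) and Ptger3 (2.34), whose receptors favour contraction, rose, while Ptger4, whose receptor relaxes the DA, was not called (-0.25, SE 0.23). The natriuretic peptide clearance receptor gene Npr3 (1.06), the phosphodiesterase gene Pde4b (1.002, borderline), the cGMP-dependent kinase gene Prkg1 (0.65, borderline) and Chrna2 rose as well. Chrm2 and the lysophosphatidic acid receptor gene Lpar1 (-0.73, borderline) were the decreases. Edn1, endothelin-1, reached an adjusted p of 0.0286 (0.64) and was not called, whereas with the aorta alone its adjusted p was 0.00887 and it was called higher.

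RGS proteins switch off G protein signals, and several of their genes were higher. Rgs5 had 5499, 5632, 5549, 4921 and 4850 CPM in the deficient vessels and 1239 to 2616 (median 1395) CPM in the controls (log2 1.71, SE 0.20, adjusted p = 1.43e-06), with control replicate 4 as the highest control. Rgs4 (0.82), Rgs17 (3.07), the R7-binding protein gene Rgs7bp (1.02) and the small GTPase genes Rnd3 (0.75) and Rhob (0.70) rose too, and Rgs7 fell (-1.19), which made 6 increases and 1 decrease of 34 genes in the list of small GTPase, ROCK, myosin phosphatase and RGS genes. In the DA Rgs5 had a log2 fold change of -0.57, and the difference between the vessels was 2.27 (SE 0.28, adjusted p = 7.90e-06). The level in the control DA averaged 7853 CPM, against 1623 CPM in the control aorta.

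Potassium channel genes gave 4 decreases and 1 increase of 51 tested (9.80%, against 2.45% of all genes), with a median of -0.01. At an unadjusted p under 0.05, 7 were higher and 4 lower. With the aorta alone 4 were called higher (Kcna5, Kcnd2, Kcnab1 and Kcnip3) and 3 lower, and Kcnma1 lost its call. The voltage-gated channel gene Kcna5 had 75.1, 57.0, 57.2, 65.7 and 51.1 CPM in the deficient and 23.6 to 40.8 (median 27.0) CPM in the control vessels (log2 1.09). The inward rectifier gene Kcnj15 (-1.68), the background channel gene Kcnk1 (-1.21), Kcnma1 and Abcc9, the sulfonylurea receptor of vascular ATP-sensitive channels (-0.68, borderline), fell. Of 43 calcium channel, store and pump genes 3 rose: Piezo2 (2.84), the calcium channel subunit gene Cacna2d1 (0.63) and the inositol trisphosphate receptor gene Itpr1 (0.51, borderline).

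**Figure D4:**
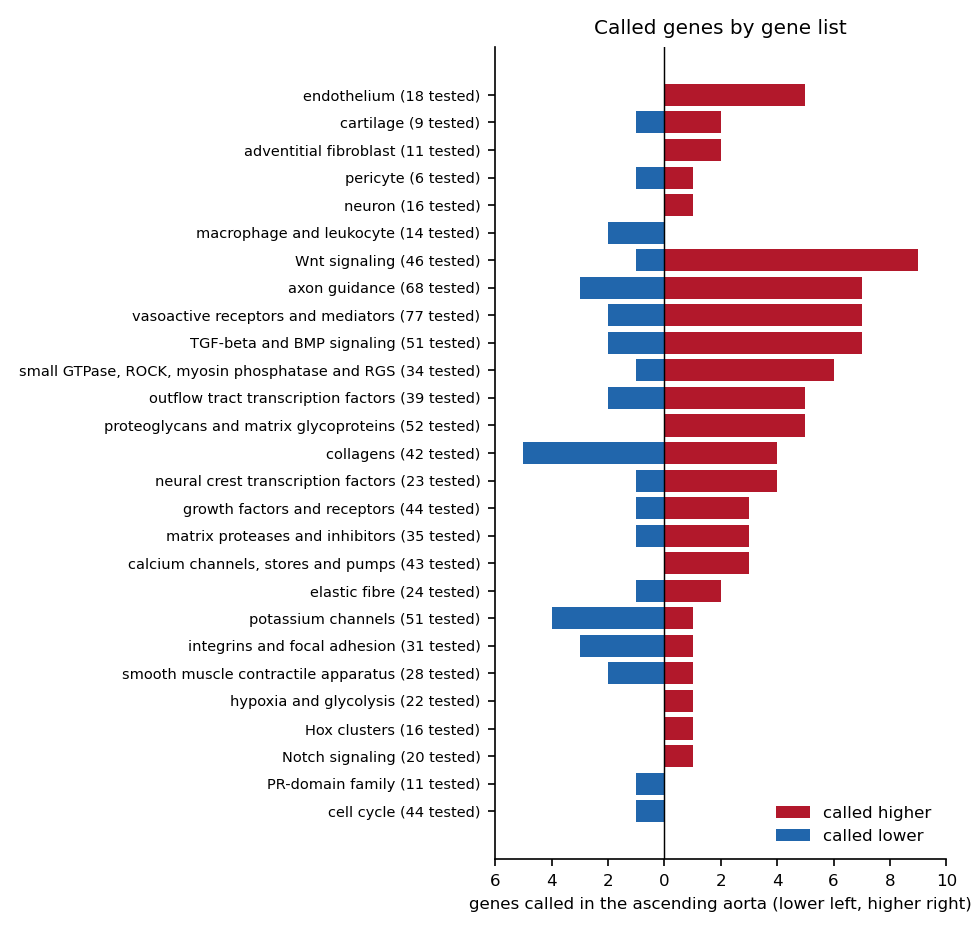
Number of genes called higher (red, to the right) and lower (blue, to the left) in the Prdm6-deficient ascending aorta for each gene list with at least 1 call, with the number of genes tested beside each name. The Wnt list has the most increases, with 9, and the collagen list the most decreases, with 5.

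Of 44 cell cycle genes, 1 was called (2.27%, near the 2.45% of all genes), and Ccnd1 and Ccne1 were called lower besides with the aorta alone. E2f1 was lower (-0.84, SE 0.16, adjusted p = 9.60e-04), and 17 of the 44 were lower and 1 higher at an unadjusted p under 0.05 (median -0.18). Of all 16463 genes 2304 reached that level, in either direction. E2f1 had 19.0, 21.6, 21.1, 16.7 and 25.2 CPM in the deficient vessels. In the 5 controls without Cre it ranged from 36.0 to 42.8 CPM, and in the only control with Cre it was 26.1 CPM, the lowest control value. In the deficient embryos the transgene and the loss of Prdm6 cannot be told apart. Immediate early genes (21 tested) and mitochondrially encoded genes (13 tested) had 0 calls with all groups in edgeR (DESeq2 called 1 immediate early gene lower and limma-voom 0, edgeR with the aorta alone called Egr1 lower, and none of these called a mitochondrial gene), with 1 higher and 7 lower immediate early genes and 0 mitochondrial genes at an unadjusted p under 0.05. Of 22 hypoxia and glycolysis genes Epas1, which encodes the hypoxia-inducible factor HIF-2α, was called (0.78), and with the aorta alone Car9 was called lower too.

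Markers of other cell types moved with the genotype in part, and in bulk tissue fewer cells of a type and less RNA per cell cannot be told apart. Among 18 endothelial markers the 5 increases were Emcn (1.23), Sox17 (0.86, borderline), Plvap (0.80, borderline), Tek (0.57, borderline) and Tie1 (0.55, borderline). There was no decrease among the 18, of which 27.8% were called against 2.45% of all genes, and their median was 0.51. Their summed level was 1943, 2093, 1574, 1850 and 1756 CPM in the deficient libraries and 1061 to 1719 CPM in the controls, which overlapped, and the part of endothelium in the increases of Notch4, Eng, Ets1, Thbd and Angpt2 (0.91) was not tested. Without 1 library at a time, 1 to 6 of the endothelial genes were called, and 8 with the aorta alone in the fit (Erg, Egfl7 and Nos3 besides the 5). Macrophage markers gave 2 decreases of 14 (F13a1, -1.24, and C1qc, -1.21, both borderline) and no increase (14.3%, against 2.45% of all genes), with a median of -1.14. Their summed level was 185, 165, 208, 252 and 165 CPM against 278 to 537 CPM, so that the groups did not overlap. Between 0 and 3 of the 14 were called lower without 1 library at a time, 6 in DESeq2, and 8 with the aorta alone in the fit.

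The remaining marker lists gave few calls. Adventitial fibroblast markers gave 2 increases of 11 (Cd34, 1.35, and Lum), but their median was -0.30. At an unadjusted p under 0.05, 2 were higher and 5 lower, and with the aorta alone Clec3b and Dpt were called lower. Cd34, a surface protein of fibroblast and endothelial progenitors, had 1207, 998, 1500, 925 and 1392 CPM against 406 to 518 (median 479.8) CPM. Neuronal markers gave 1 of 16, the RNA-binding protein gene Elavl4 (3.01). Elavl4 had 30.9, 17.5, 53.2, 35.1 and 51.5 CPM in the deficient and 3.01 to 6.41 (median 4.55) CPM in the control vessels. The summed neuronal level, in which Elavl4 is included, was 178, 196, 243, 211 and 187 CPM against 134 to 158 CPM. These sums did not overlap between the groups. Elavl4 made up 51.5 of the 187 CPM in deficient replicate 5 and 5.5 of the 158 CPM in control replicate 2. Without Elavl4 the sums of the groups therefore overlapped. Over the 16 genes the median was 0.08, with 10 higher and 6 lower by sign (4 higher and 0 lower at an unadjusted p under 0.05). Cartilage markers gave 2 increases (Col11a1 and Hapln1) and 1 decrease (Sox9) of 9, and pericyte markers Rgs5 upward and Abcc9 downward of 6. Schwann cell (12 tested, median 0.80), melanocyte, cardiomyocyte, skeletal muscle, erythroid, adipocyte, mesothelial (9 tested, median -1.94), epithelial, lymphatic endothelial and thymocyte lists had 0 calls with all groups in edgeR and limma-voom, and DESeq2 called 1 mesothelial gene lower. With the aorta alone edgeR called Lyve1 (lymphatic), Fabp4 (adipocyte) and Upk3b (mesothelial) lower and Krt15 (epithelial) higher. With all groups 3, 3, 0, 2, 0, 2, 4, 1, 1 and 1 of their genes, in that order, had an unadjusted p under 0.05, against 2304 of all 16463 genes. The erythroid sum, which reflects blood in the vessel, was 26790 to 136600 CPM in the controls and 35390, 23530, 57630, 16170 and 22430 CPM in the deficient libraries.

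The aorta and the DA shared part of the response. Over all tested genes, 5.43% were called in the DA in either direction. Of the 404 genes called in the aorta, 157 were called in the DA in the same direction (38.9% of the aorta and 17.6% of the DA calls), 116 higher and 41 lower in both. These included Rergl, Clca3a2, Angpt1, Tox, Piezo2, Rspo3, Ephx2, Cd34 and Twist1. The 2 comparisons used different libraries, but 10 of the 11 aorta embryos, all 6 controls among them, also gave DA tissue, and the fit did not tie vessels of 1 embryo together. The effect in the aorta differed from that in the DA for 122 of the 404 genes (30.2%, against 2.58% of all genes), and in 105 of these it was the larger in size. The 404 were chosen by their aorta effect, which favours both counts in advance, so neither shows a stronger response in the aorta. Of the 230 genes called in the aorta and not in the DA, 92 passed that test, and for the others no difference between the vessels was shown. With embryo as a correlated block in limma-voom, added after the data were seen, 113 of the 122 passed, as many as in limma-voom without the block.

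Several leaders of the aorta belonged to the 122. Penk had a log2 fold change of 3.14 in the aorta and 0.46 in the DA, with a difference of 2.68 (SE 0.36, adjusted p = 2.40e-05). Thbs4 differed by 3.99 (SE 0.58, adjusted p = 5.55e-05) and Mme by 3.38 (SE 0.49, adjusted p = 6.31e-05), and neither was called in the DA. Ccdc3 and Col8a1 rose in both vessels, by log2 steps of 2.21 and 1.82 in the DA, but more in the aorta (differences 2.96 and 2.56, the latter not passed in limma-voom with the embryo block). Among the decreases, Col6a6 (difference -2.32), Gria1 (-1.78), Col14a1 (-1.42), Vim (-0.88) and Itga8 (-0.92) passed the test of the difference, and none was called in the DA, where their log2 fold changes were 0.27, -0.70, 0.12, 0.07 and -0.19.

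Opposite calls in the vessels were made for 17 genes. Higher in the aorta and lower in the DA were 14 genes: the actin-associated and kinase genes Mylk and Palld (0.60 and -0.52, borderline), the BMP pathway genes Nog (2.42 and -2.73) and Gdf6 (1.10 and -1.03), and Angptl1, Pde4b, Ckb, Ror2, Farp1, Npr3, Tshz1 (borderline), Cyp1b1, Cxcl15 and Ltbp1. Lower in the aorta and higher in the DA were Hip1r (-1.36 and 0.72), the adhesion gene Cdh13 (-0.99 and 0.69) and Fam129a (-0.89 and 0.64). Cyp1b1, a cytochrome P450, had 284, 276, 308, 278 and 273 CPM in the deficient and 68.7 to 166 (median 110.2) CPM in the control aorta, and averaged 176 CPM in the deficient and 418 CPM in the control DA.

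**Figure D5:**
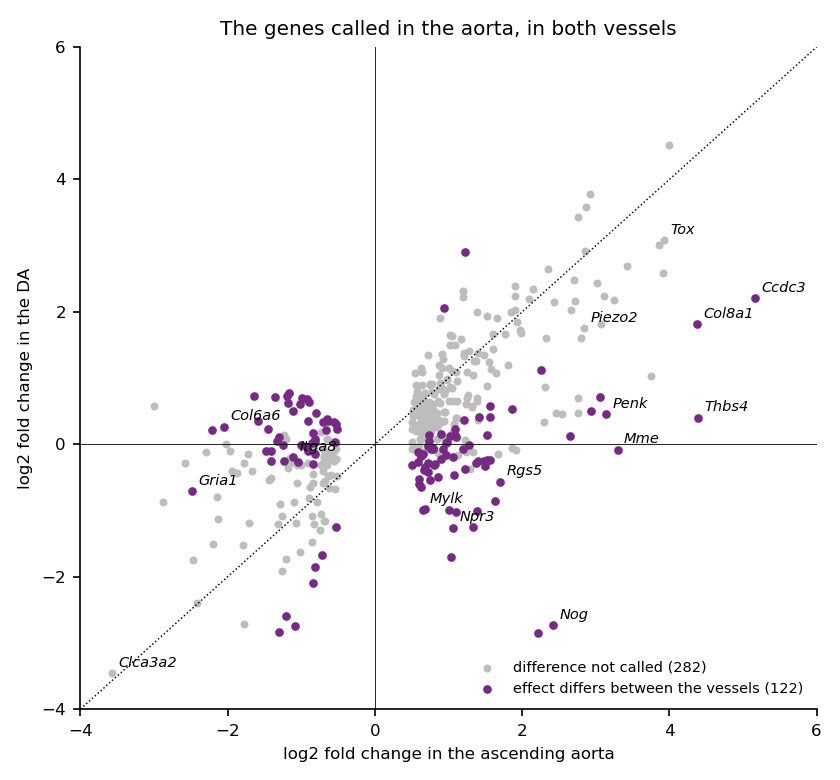
Log2 fold change (Prdm6-deficient over control) in the ascending aorta (x axis) and in the DA (y axis) for the genes called in the aorta, 397 of 404 of which lie within the axes. Purple points are the 122 genes whose effects differed between the vessels and grey points the others, with equal effects on the dotted line, and Mylk, Npr3 and Rgs5 lie to the right of 0 in the aorta and below 0 in the DA.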

How the data were processed

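RNA from microdissected vessels of E18.5 embryos was sequenced as 151-base paired reads from low-input libraries. Per the paper's methods, reads were filtered with FASTX and TagDust, and the authors aligned them with STAR to mm10 and estimated counts per gene with RSEM. The deposited values are expected (estimated) counts, not normalized, of which 7.71% were not whole, and they were rounded. One of the 24 samples, a Prdm6-deficient DA library, was not analysed here. Of 54752 gene identifiers, 54723 were matched to GENCODE M21 for symbols, places and biotypes.

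Counts of all 23 libraries were fitted in edgeR 4.0.16 (R 4.3.3) with 1 mean per vessel and genotype, after filterByExpr and TMM scaling, and tested by the quasi-likelihood F-test with Benjamini-Hochberg adjustment. The test used expected counts from RSEM as if counted. A gene was called at an adjusted p below 0.01 with a log2 fold change beyond 0.5. The difference between the vessels was the aorta effect minus the DA effect in the same fit. CPM values are TMM-scaled. Replicates are separate embryos. The lists and compared groups were chosen with earlier results of these data known. Genes named are Prdm6, the 12 largest changes in each direction (called, groups not overlapping, average log2 CPM of at least 1), every called list member, the study's own marker genes and called genes within 10 Mb of Prdm6; the genes described as leading by p-value, Penk, Thrb, Ptx3, Clca3a1, Cxcl12, Vim, Selenop, Galnt16, Angpt2, Hopx, Pth1r, Myrf and the 17 genes with opposite calls were added after their values were seen. A few genes this rule names, and 1 promoter window, are not reported here. Alternatives were other scalings and filters, DESeq2 1.42.0, limma-voom (limma 3.58.1), the aorta alone, animal series, a replicate block, an embryo block and leaving out each library. The fit was tested on simulated data. At 18980857 to 22610547 counts per aorta library, levels below 0.133 to 0.158 CPM rest on under 3 counts, and floors cover counting error only.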

Additional observations from a re-analysis of the deposited data

Results flagged for a closer look

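The genotype effect differed between the aorta and the DA, by the test of the difference itself in edgeR (adjusted p below 0.01 and a log2 difference beyond 0.5), for 66 of the 173 genes named. Of all tested genes 2.58% passed it. The 17 genes with opposite calls were named for such a difference, and many others for their aorta effect. The count of 66 was thus favoured in advance and says nothing about the named genes as a set. Values are the aorta effect minus the DA effect on the log2 scale, so that a negative value means a change further downward in the aorta. For SMC genes they were Actg2 2.30, Cnn1 1.33, Myh11 1.85, Mylk 1.64, Tagln 0.76, Palld 1.13, Itga8 -0.92 and Vim -0.88. For matrix genes they were Col8a1 2.56, Fbn2 1.75, Ltbp1 1.27, Thbs4 3.99, Col14a1 -1.42, Col24a1 -1.30, Col6a6 -2.32 and Loxl1 -0.55. For Wnt, BMP, Notch and growth factor genes they were Bmp4 1.005, Gdf6 2.12, Inhba 1.12, Nog 5.15, Skil 0.80, Ror1 0.84, Ror2 1.65, Vegfd 1.32, Kitl 0.72, Jag1 -0.78 and Notch3 -0.82. For guidance genes they were Neo1 0.75, Ntn3 1.83, Ntn4 1.65, Slit2 1.16, Unc5b 0.86 and Epha1 -1.80. For vasoactive and RGS genes they were Edn1 1.78, Lpar1 0.95, Npr3 2.32, Pde4b 1.99, Ptger4 2.88, Rgs5 2.27, Rgs7 -1.91, Gria1 -1.78, Kcnk1 1.38 and Slc12a2 1.25. For the other genes they were Angptl1 2.48, Ccdc3 2.96, Cck -2.42, Cdh13 -1.68, Ckb 2.73, Cxcl12 0.60, Cxcl15 5.06, Cyp1b1 2.58, Epas1 0.84, Fam129a -1.53, Farp1 2.40, Galnt16 -1.15, Higd1a 1.14, Hip1r -2.08, Mme 3.38, Osr1 -0.98, Penk 2.68, Ptx3 2.44, Selenop -1.68, Thbd 0.98, Thrb 2.34, Tmem176b 1.28 and Tshz1 1.19.

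Within the aorta groups, 19 values of 346 gene and group pairs stood apart from the other libraries of their group by the size of the gap to the nearest value, where chance alone gives about 1 in 20. Prdm6-deficient aorta replicate 1 had 118.4 CPM of Palld (others 91.2 to 99 CPM). Prdm6-deficient aorta replicate 3 had 33.5 CPM of Bambi (others 44 to 48.1 CPM), 49.3 CPM of Col23a1 (others 33.1 to 36.1 CPM), 124.8 CPM of Npr3 (others 77.5 to 89.3 CPM) and 46.5 CPM of Srf (others 70.6 to 75.4 CPM). Prdm6-deficient aorta replicate 4 had 1.26 CPM of Cldn3 (others 0.277 to 0.55 CPM) and 2.14 CPM of Foxf1 (others 0.195 to 0.477 CPM). Control aorta replicate 1 had 91.8 CPM of Bambi (others 61.3 to 66.2 CPM), 13.9 CPM of Cck (others 4.48 to 6.74 CPM), 1.36 CPM of Cdh8 (others 2.73 to 3.54 CPM), 117.9 CPM of Epha3 (others 173.7 to 196.7 CPM) and 269.1 CPM of Jag1 (others 199.7 to 211.6 CPM). Control aorta replicate 2 had 19.8 CPM of Pgr (others 12.8 to 14.5 CPM). Control aorta replicate 3 had 47.7 CPM of Penk (others 31.8 to 37.7 CPM), 0.0513 CPM of Rergl (others 0) and 7.18 CPM of Slc27a6 (others 4 to 5.15 CPM). Control aorta replicate 4 had 55.9 CPM of Ptger4 (others 22 to 32.2 CPM). Control aorta replicate 5 had 40.8 CPM of Kcna5 (others 23.6 to 28.8 CPM). Control aorta replicate 6 had 409.4 CPM of Ilk (others 445.4 to 462.0 CPM). Control replicate 1 gave 5 of these and deficient replicate 3 gave 4, some above and some below the others. The total of 19 was near the chance rate, and the spread of these values over the libraries was not tested. The Rergl value is 1 count against none.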

How the results depend on the processing

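The number of called genes lay between 361 and 460 with other scalings or filters, limma-voom, the animal series or Y-linked expression as a covariate (the last added after the data were seen), and the second animal series alone, within 1.5 times 404. It was 829 at an adjusted p below 0.05 with no fold minimum and 205 with a minimum of 2-fold. DESeq2 called 563, with 224 lower. With the aorta libraries alone 702 were called, 409 higher and 293 lower, and 661 with 263 lower when control replicate 4 was also removed. Their common dispersion was 0.0590, against 0.164 with all groups. Leaving out 1 library at a time gave 325 to 381 calls, and each of the 11 fits called 274 of the genes.

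Replicate numbers shared by the genotypes did not pair the libraries: deviations of same-numbered libraries correlated at -0.0334 to 0.0270, 0 of 5 pairs passed 0.1, and 1 correlated best with its own number. With the replicate block in the aorta fit 568 genes were called, 226 of them lower. With embryo as a correlated block in limma-voom (correlation within embryos 0.0337) 452 genes were called in the aorta, and 496 genes differed between the vessels against 481 in limma-voom without it and 425 in edgeR. Of the 66 named genes that differed, Cck, Col8a1, Kcnk1 and Lpar1 were lost, and as many without the block.

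Over the named genes 3733 of 4148 values kept their direction and side of the threshold, 394 lost the call, 6 gained it (Edn1 in 4 settings, Fbln1 in 2) and 15 changed sign. Sign changes concerned genes near 0 that were not called: Myh11 (0.00216 in limma-voom, 0.00147 in limma-voom with the embryo block, 0.0235 in the second series, 0.0893 in the aorta alone without control replicate 4, and -0.156 to 0.0888 without 1 library, above 0 at 0.0150, 0.0888 and 0.0407 without deficient replicate 3, control replicate 4 and control replicate 5), Srf (0.121 in the second series, and -0.0924 to 0.0616 without 1 library, above 0 at 0.0616 and 0.0120 without deficient or control replicate 3), Ilk (0.00492 in the second series), Actg2 (0.0219 and 0.0214; lowest -0.184) and Ptger4 (0.00497 and 0.00431; lowest -0.333), both above 0 without control replicate 4 in the aorta alone and in all groups. The cause was not tested.

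Of 156 called genes named, 44 lost the call without at least 1 library. 28 of them did so without 6 or more of the 11 libraries, and with all libraries their adjusted p was 0.0037 to 0.00992 in edgeR. The rest lost it without fewer: Barx1 (deficient replicate 5), Col6a2, Dkk1 and Dlx1 (deficient replicate 3), Itga9 and Pde4b (deficient replicate 4), Foxc1 (control replicate 2), Bambi (deficient 3, control 1), Foxp2 (deficient 1 and 4), Mmp23 (control 1 and 3), Lrp5 (deficient 1, control 1 and 4), Ltbp1 (deficient 1 and 5, control 1, 2 and 6), Plvap (deficient 1, 2 and 5, control 1 and 3), C1qc (deficient 1, 2 and 5, control 2 and 3), Slc27a6 (deficient 1, 2, 3 and 5, control 3) and Xkr4 (deficient 1, 2 and 5, control 3 and 5).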

Other observations

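Further called genes outside the lists were singled out after their values were seen. Hopx, an atypical homeodomain gene of cardiac and smooth muscle progenitors, had 22.7, 27.9, 29.6, 25.8 and 22.4 CPM in the Prdm6-deficient and 3.64 to 9.01 (median 6.09) CPM in the control aorta (log2 1.98, adjusted p = 2.79e-06 in edgeR). Pth1r, the receptor of parathyroid hormone and its related peptide, which relaxes vessels, had 89.9, 88.7, 104, 95.2 and 96.8 CPM against 36.8 to 57.7 (median 40.9) CPM (log2 1.11, adjusted p = 1.06e-06). Both rose in the DA too (log2 1.68 and 1.09). Myrf, a membrane-tethered transcription factor, had 18.3, 20.2, 5.82, 18.1 and 10.7 CPM against 40.5 to 55.0 (median 49.5) CPM (log2 -1.71, adjusted p = 3.53e-06) and also fell in the DA (-1.18). In all 3 genes the deficient and control aortas did not overlap.

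Genes that moved in opposite directions in the vessels included Angptl1, an angiopoietin-like secreted protein, with 55.7, 57.2, 64.3, 49.4 and 49.7 CPM in the deficient and 13.6 to 20.1 (median 18.8) CPM in the control aorta, and means of 21.7 and 39.1 CPM in the deficient and control DA. Farp1, a guanine nucleotide exchange factor, had 106, 100.4, 107, 101 and 93.7 CPM against 28.5 to 58.2 (median 36.6) CPM in the aorta, and means of 76.4 and 154 CPM in the DA. The creatine kinase gene Ckb had 112, 173, 171, 117 and 138 CPM against 44.6 to 113 (median 66.1) CPM in the aorta, where the groups overlapped, and means of 116 and 377 CPM in the DA. Cxcl15, a chemokine gene, had 19.5, 26.9, 37.2, 36.2 and 22.1 CPM against 2.52 to 12.8 (median 5.24) CPM in the aorta and 7.08 and 50.9 CPM in the DA.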
